A study of Rattus norvegicus with 52 samples.

Results

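The Notch receptors *Notch1*, *Notch2*, *Notch3* and *Notch4*, the ligands *Jag1*, *Jag2* and *Dll1*, the target genes *Hes1* and *Hey1* and the inhibitor *Numb* were followed in sorted rat mammary epithelial cells. These 10 symbols were looked up in the gene column of every count file, and 9 of them were found among 17356 genes. *Jag2* was not analysed here. Counts were scaled to CPM, the reads of a gene per 1000000 reads assigned to genes in that library, over all 48 RNA-seq libraries.

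Notch receptors are membrane proteins that are cleaved when a ligand of the Jagged or Delta family on a neighbouring cell binds them. The released intracellular part enters the nucleus, joins the DNA-binding protein RBPJ and switches on targets of the Hes and Hey families, while Numb sends receptor for degradation. In the mammary gland the pathway is known for its part in the choice between basal and luminal fates and for its activity in luminal progenitors.

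All animals were female rats. In 3 of the experiments they were ACI rats, littermates from heterozygous crosses at early and later backcross generations that were either *Cdkn1b*+/+ or *Cdkn1b*-/-; *Cdkn1b* encodes the cell cycle inhibitor p27, and the whole-body loss came from the alleles Cdkn1bem1Musc (DEL-32) and Cdkn1bem4 (DEL-65), both contributing to each genotype. At 9 weeks of age 2 libraries per genotype were made from basal cells (Cd24+ Cd29HIGH), mature luminal cells (Cd24+ Cd29LOW Cd49b- PNA-), PNA+ luminal progenitors and Cd49b+ luminal progenitors, 16 in all, and the last 2 are pooled below as LP. At 4 weeks basal and luminal (Cd24+ Cd29LOW) cells gave 11 libraries, and at 6 weeks they gave 9. These are the ages of the labels; the titles carry 3.4 for 1 *Cdkn1b*+/+ animal of the 4-week set and, in the 6-week set, 5.3 for *Cdkn1b*-/- animal 1 and 5.9 for all others, so that genotype at 6 weeks includes this difference in age. A further experiment of 12 libraries used wild-type ACI and BN (Brown Norway) rats, with no *Cdkn1b* deletion. They carried an empty or an estradiol (E2) implant for 3 weeks from 9 weeks of age. Basal and luminal libraries of that experiment share animal numbers in their titles, and BN had 1 library per treatment and cell type, whose title carries a pair of animal numbers. Titles of the luminal libraries there read CD49b_PNA_LUM, where those at 4 and 6 weeks read LUM, so the luminal sorts may differ between experiments. No label says that the like-numbered libraries of a group at 9 weeks were from separate animals, so p-values there measure the spread between these libraries.

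Assigned reads ranged from 21545344 to 33859550 per library at 9 weeks, 14674040 to 23045345 at 4 weeks, 7985619 to 16390460 at 6 weeks and 13659389 to 25280421 in the E2 experiment. With 3 reads a gene stood at 0.376 CPM or less in every library. In 3 libraries fewer than 10000 genes were detected, namely 6-week *Cdkn1b*-/- luminal library 2 and ACI E2 basal and luminal libraries 1. *Cdkn1b* itself was at 1.60 to 4.24 CPM in the 8 *Cdkn1b*-/- libraries of 9 weeks and at 6.00 to 18.04 CPM in the 8 *Cdkn1b*+/+ libraries. At 4 weeks the ranges were 4.30 to 15.2 and 15.6 to 43.9 CPM, and at 6 weeks they overlapped (11.1 to 30.2 and 3.13 to 46.3 CPM). Reads of the gene outside the deleted bases are counted too. The cause of the overlap at 6 weeks was not tested. All 9 basal markers found (*Krt5*, *Krt14* and others) were higher in basal than in luminal cells at 9, 4 and 6 weeks. In the E2 experiment 3 of 9 were, and 3 of 6 luminal markers were lower; ACI E2 basal library 1 had a basal marker sum of 2144 CPM with 2 of the 9 at 0, where the other 5 basal libraries had 4905 to 17710 CPM. The mature luminal label was not borne out by its markers, since of the list *Foxa1*, *Esr1*, *Pgr*, *Prlr*, *Prom1* and *Ly6d* 5 were tested, 3 were higher in LP than in mature luminal cells and none was lower. The sum of the 6 was 44.2 to 315.5 CPM in mature luminal and 156 to 725.5 CPM in LP libraries, and of 4 luminal progenitor markers tested none was higher and 1 was lower in LP. The data thus go against both labels, and mature luminal and LP are used below as names of the sorts only. Fewer cells of one type and less RNA per cell cannot be told apart in such bulk libraries.

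Promoter sequences are shown for the target *Hes1* and the ligand *Dll1*, which passed the test most often below and had opposite signs between basal and luminal cells. Both are the 250 bases before the RefSeq start in build GRCr8, written 5′ to 3′ on the strand of the gene, at chr11:84213046-84213295 (minus strand) for *Hes1* and chr1:64993275-64993524 (minus strand) for *Dll1*. Capitals mark TGGGAA, the core of the RBPJ binding motif, on either strand.
Hes1: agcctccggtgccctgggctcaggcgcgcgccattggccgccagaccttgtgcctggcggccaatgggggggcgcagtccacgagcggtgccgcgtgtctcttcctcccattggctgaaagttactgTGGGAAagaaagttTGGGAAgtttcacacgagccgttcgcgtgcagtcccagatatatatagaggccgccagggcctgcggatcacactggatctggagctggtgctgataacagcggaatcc
Dll1: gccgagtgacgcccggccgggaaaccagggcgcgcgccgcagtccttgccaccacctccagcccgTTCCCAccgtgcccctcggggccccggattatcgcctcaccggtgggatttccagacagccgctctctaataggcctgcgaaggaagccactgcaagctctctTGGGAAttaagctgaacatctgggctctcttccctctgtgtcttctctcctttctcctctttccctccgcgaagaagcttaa
The *Hes1* window held 2 matches on the strand of the gene, 123 to 118 and 109 to 104 bases before the start, with 8 bases between them. In *Dll1* 1 match lay on the opposite strand at 185 to 180 bases and 1 on the strand of the gene at 82 to 77 bases. TGGGAA was present on either strand in 22.1% of 33469 rat promoter windows of this length, and the longer GTGGGAA, which contains it, in 5.27%. A promoter entry existed for 8 of the 9 measured members, of which 3 (*Notch4*, *Dll1* and *Hes1*) held TGGGAA and 2 (*Dll1* and *Hes1*) GTGGGAA. These matches describe letters and not binding.

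The first question was where in the epithelium each gene is read out. At 9 and 4 weeks the ligands *Dll1* and *Jag1* were higher in basal cells, and the receptors *Notch1* and *Notch4* and the target *Hes1* in luminal cells, while *Notch2* passed in neither and *Notch3* at 4 weeks only. At 9 weeks 5 of 9 members passed an adjusted p of 0.05 between basal and luminal cells, 2 higher and 3 lower in basal cells, so that 55.6% of the members passed where 43.6% of all genes tested did. At 4 weeks 7 of 9 passed, 2 higher and 5 lower, against 47.5% of all genes. At 6 weeks 1 of 9 passed against 3.26% and in the E2 experiment 1 of 9 against 2.68%, and in both this was *Dll1*. The median log2 fold change of the 9 members was -0.49 at 9 weeks and -0.74 at 4 weeks, beside 0.05 and -0.04 over all genes tested.

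**Figure D1:**
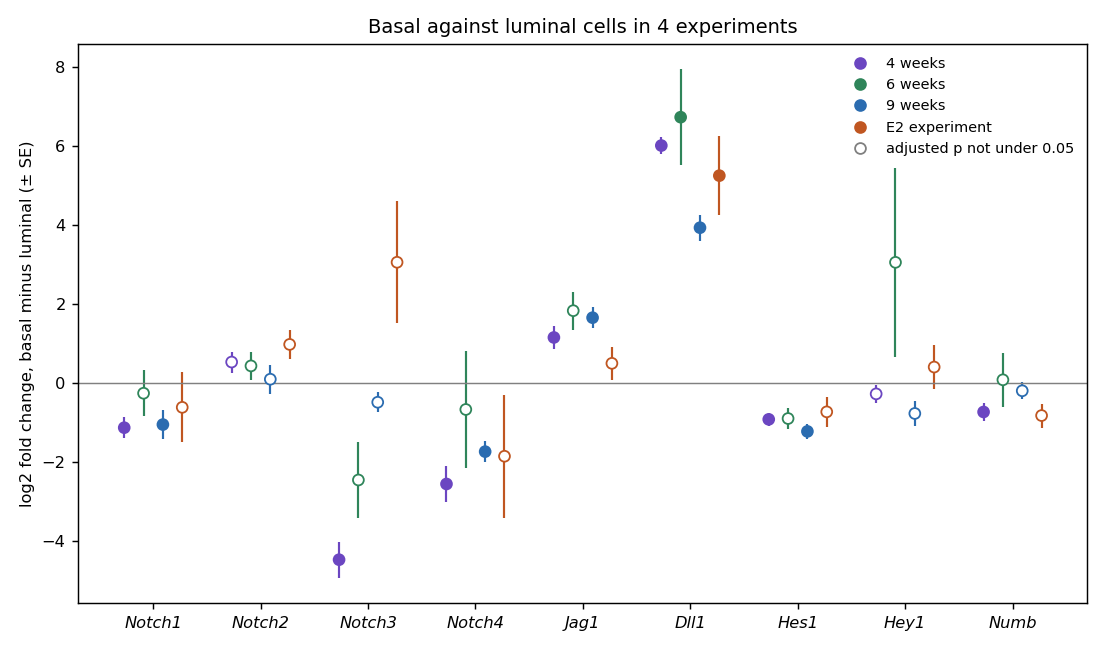
Log2 fold change of basal minus luminal cells (vertical axis) for the 9 measured genes in the 4 experiments; bars are standard errors, and filled points passed an adjusted p of 0.05. *Dll1* lies between 3.93 and 6.72 in every experiment, while *Notch3* runs from -4.48 at 4 weeks to 3.05 in the E2 experiment.

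*Dll1*, which encodes a Delta-like ligand, separated basal from luminal cells in all 4 experiments. At 9 weeks the 4 basal libraries stood at 126, 115, 111 and 172 CPM, and the 12 luminal libraries ran from 2.51 through a median of 6.27 to 41.3 CPM. At 4 weeks the 5 basal libraries had 258, 477, 506, 113 and 471 CPM, against 1.51 to 9.94 CPM in 6 luminal libraries (median 5.11). At 6 weeks the 5 basal libraries had 528, 152, 160, 256 and 345 CPM, and the 4 luminal libraries 10.4, 0.91, 11.4 and 0 CPM. In the E2 experiment 6 basal libraries lay between 40.2 and 301 CPM (median 120) and 6 luminal libraries between 0.073 and 11.2 CPM (median 3.78).
In no experiment did the basal and luminal libraries overlap. The log2 fold changes were 3.93 (SE 0.33, adjusted p = 2.9e-06) at 9 weeks, 6.01 (SE 0.23, adjusted p = 3e-08) at 4 weeks, 6.72 (SE 1.21, adjusted p = 0.041) at 6 weeks and 5.25 (SE 1.00, adjusted p = 0.041) in the E2 experiment. The last 2 calls rest on few libraries. At 6 weeks the call was lost without any one of 6 of the 9 libraries (adjusted p up to 0.23), all but *Cdkn1b*+/+ basal library 3 and *Cdkn1b*-/- basal and luminal libraries 2, and in the E2 experiment without any one of 10 of the 12 (adjusted p up to 0.14), all but ACI E2 basal and luminal libraries 1. Some markers of other cells also differed. At 4 weeks 5 of 5 fibroblast, 5 of 6 Schwann cell and 3 of 4 pericyte and smooth muscle markers were higher in basal libraries. There 2 of 11 endothelial markers were higher too, and 1 endothelial, 3 of 5 leukocyte and 1 of 2 adipocyte markers were lower. At 9 weeks 3 of 5 fibroblast, 2 of 6 Schwann cell, 1 of 4 adipocyte and 1 of 11 endothelial markers were higher. Lower were 6 endothelial, 1 Schwann cell, 1 adipocyte and 1 of 8 leukocyte markers. At 6 weeks 3 of 6 Schwann cell markers were higher and 1 of 9 endothelial markers was lower. In the E2 experiment 2 of 10 endothelial, 1 of 5 pericyte and smooth muscle and 1 of 3 adipocyte markers were higher. The part of other cells in the values of *Dll1*, *Jag1* and the other genes higher in basal cells was not tested.

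*Jag1* encodes a Jagged ligand and also leaned to basal cells. At 9 weeks the basal libraries had 83.3, 34.6, 58.6 and 44.4 CPM and the luminal ones 5.24 to 52.2 CPM (median 14.5), a log2 fold change of 1.65 (SE 0.26, adjusted p = 0.00035). At 4 weeks basal libraries had 26.7, 26.9, 44.9, 7.80 and 53.9 CPM and luminal ones 4.21 to 25.6 CPM (median 17.8), a log2 fold change of 1.15 (SE 0.29, adjusted p = 0.0081) with the animal as a term and an adjusted p of 0.14 without it. The groups overlapped at both ages. At 9 weeks the basal library was above all 3 luminal ones in 2 of the 4 combinations of genotype and number. At 4 weeks the basal library was above the luminal one in 5 of 5 animals. It was so again in 4 of 4 animals of 6 weeks, where the log2 fold change of 1.83 (SE 0.48) had an adjusted p of 0.10. In the E2 experiment it was so in 4 of 6 pairs, with a log2 fold change of 0.49 (SE 0.41, adjusted p = 0.62).

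**Figure D2:**
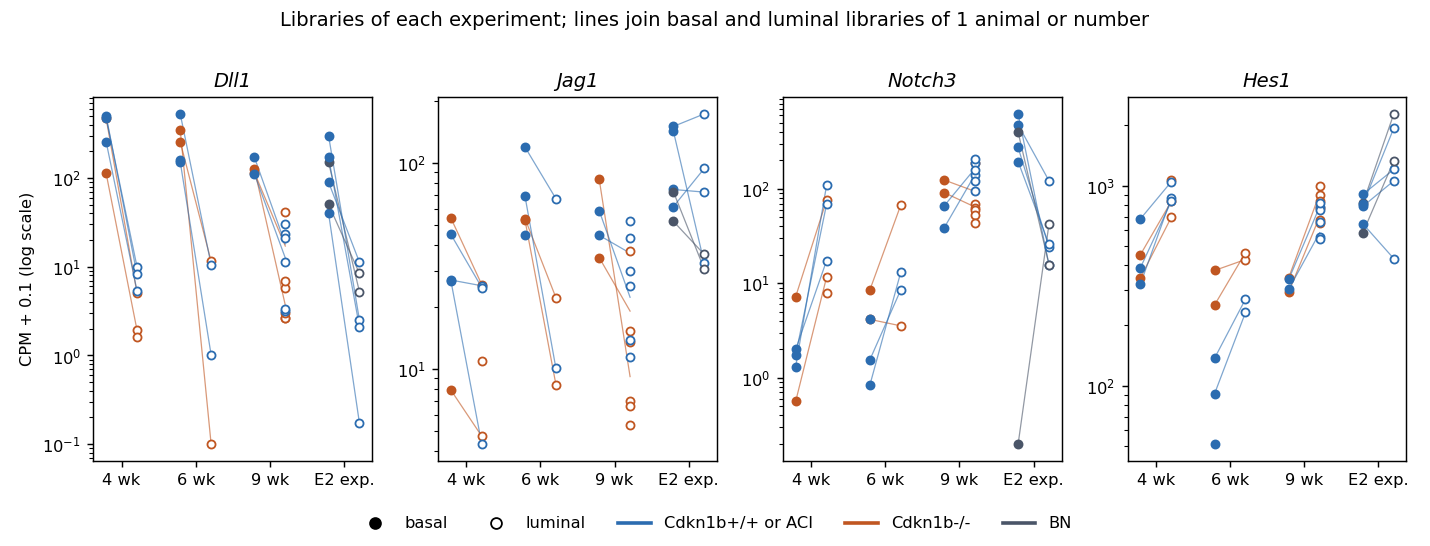
CPM plus 0.1 on a log axis of *Dll1*, *Jag1*, *Notch3* and *Hes1* in basal (filled) and luminal (open) libraries of each experiment; lines join the basal library to the mean of the luminal libraries of the same animal, or at 9 weeks of the same genotype and number. Basal *Dll1* lies above luminal *Dll1* in every joined pair, and basal *Notch3* is at 8.37 CPM or less at 4 and 6 weeks but at 38.2 CPM or more at 9 weeks.

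*Notch1*, a receptor known for its part in luminal fate, was lower in basal cells at 9 and 4 weeks. The 4 basal libraries of 9 weeks had 57.8, 37.6, 61.5 and 88.7 CPM and the 12 luminal libraries 43.6 to 224 CPM (median 132), which overlapped. The log2 fold change was -1.06 (SE 0.36, adjusted p = 0.032), and the call was lost without any one of 7 of the 16 libraries (adjusted p up to 0.14), namely the 4 basal libraries, *Cdkn1b*-/- PNA+ library 1 and *Cdkn1b*+/+ Cd49b+ and PNA+ libraries 2. For every genotype and number at 9 weeks the basal library was below all 3 luminal ones. At 4 weeks basal libraries had 28.6, 21.9, 30.6, 11.03 and 69.6 CPM and luminal ones 31.5 to 118 CPM (median 68.9), and the basal library was lower in 5 of 5 animals (log2 fold change -1.14, SE 0.27, adjusted p = 0.0055; without the animal as a term adjusted p = 0.054). At 6 weeks the basal library was lower in 3 of 4 animals (-0.26, SE 0.58, adjusted p = 0.84) and in the E2 experiment in 4 of 6 pairs (-0.62, SE 0.89, adjusted p = 0.79). The 2 exceptions of the E2 experiment were controls, with 89.8 against 37.0 CPM in ACI and 99.5 against 37.4 CPM in BN.

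*Notch4*, a receptor best known from endothelium, was lower in basal cells at the same ages. At 9 weeks the basal libraries had 12.17, 11.82, 11.90 and 11.95 CPM and all 12 luminal libraries were above them, at 22.1 to 64.1 CPM (median 41.2; log2 fold change -1.74, SE 0.28, adjusted p = 0.00033). At 4 weeks basal libraries had 3.69, 3.42, 1.92, 5.72 and 3.15 CPM and luminal ones 8.08 to 47.1 CPM (median 18.7), again without overlap (log2 fold change -2.56, SE 0.45, adjusted p = 0.00088). At 6 weeks the luminal libraries were far apart, with 0.10, 3.499, 40.8 and 0.32 CPM, and the basal ones had 0.16 to 2.37 CPM. The 6-week difference of -0.68 (SE 1.47, adjusted p = 0.84) was within that spread. Endothelial markers had the same sign as *Notch4* at 9 weeks, with 6 of 11 lower and 1 higher in basal cells (median log2 fold change -1.01), and at 4 weeks 1 was lower and 2 higher (median -0.50). Their part in the *Notch4* difference was not tested.

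*Notch3*, a receptor of luminal progenitors and of vascular mural cells, passed between basal and luminal cells at 4 weeks only. At 4 weeks the basal libraries had 1.89, 1.21, 1.64, 0.46 and 7.12 CPM and the luminal ones 7.82 to 109 CPM (median 43.0), with no overlap (log2 fold change -4.48, SE 0.45, adjusted p = 1.5e-05). The basal library was also lower in 3 of 4 animals of 6 weeks (log2 fold change -2.46, adjusted p = 0.22). At 9 weeks basal libraries had 91.4, 124, 38.2 and 65.6 CPM, inside the luminal range of 43.3 to 208 CPM for 3 of 4 (log2 fold change -0.49, SE 0.25, adjusted p = 0.13). In the E2 experiment 5 of the 6 basal libraries had 195 to 622 CPM and the BN E2 library 0.098 CPM, while luminal ones had 15.6 to 122 CPM (log2 fold change 3.05, SE 1.54, adjusted p = 0.36).
Basal *Notch3* thus differed widely between experiments, which were separate sets of libraries. The summed level of 5 pericyte and smooth muscle markers (*Pdgfrb*, *Rgs5*, *Cspg4*, *Kcnj8* and *Abcc9*) in basal libraries was 14.4 to 51.6 CPM at 4 weeks, 1.13 to 53.2 CPM at 6 weeks, 32.5 to 135 CPM at 9 weeks and 142 to 2957 CPM in the E2 experiment, where the lowest was the BN E2 library. That library also had 16610 CPM over 6 fibroblast markers, against 565 to 2749 CPM in the other 5 basal libraries of that experiment. The part of these cells in the result was not tested.

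*Notch2* passed between the cell types in no experiment. At 9 weeks basal libraries had 109.5, 72.5, 84.8 and 107 CPM and luminal ones 50.7 to 127.5 CPM (log2 fold change 0.09, SE 0.37, adjusted p = 0.86). Its levels followed the library number instead: over all 4 populations *Cdkn1b*-/- number 1 had 109.5 to 127.5 CPM, *Cdkn1b*-/- number 2 51.5 to 72.5, *Cdkn1b*+/+ number 1 50.7 to 84.8 and *Cdkn1b*+/+ number 2 102.5 to 108.5 CPM. Within a genotype the numbers did not overlap, though the share of all genes without overlap was not computed. Over the expressed genes, libraries of the same genotype and number deviated together (12 pairs, r of residuals 0.343 to 0.935). Following the number is thus not particular to *Notch2*. In the other experiments *Notch2* was higher in the basal library of 4 of 5 animals at 4 weeks (log2 fold change 0.53, SE 0.27, adjusted p = 0.13), of 4 of 4 at 6 weeks (0.43, SE 0.36, adjusted p = 0.57) and of 6 of 6 pairs in the E2 experiment (0.97, SE 0.38, adjusted p = 0.22).

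*Hes1*, the classical Notch target and a repressor of transcription, was higher in luminal cells. The 4 basal libraries of 9 weeks had 294, 347, 303 and 340 CPM, and the 12 luminal libraries 539 to 993 CPM (median 762), all above them (log2 fold change -1.23, SE 0.18, adjusted p = 0.00019). At 4 weeks basal libraries had 682, 322.5, 389, 451.5 and 346 CPM and luminal ones 695 to 1066 CPM (median 851), again apart (log2 fold change -0.93, SE 0.16, adjusted p = 0.00087). At 6 weeks the basal library was lower in 4 of 4 animals, with a log2 fold change of -0.90 (SE 0.26, adjusted p = 0.13), and in the E2 experiment in 5 of 6 pairs, with -0.73 (SE 0.39, adjusted p = 0.38). The sign was thus the same in the 4 experiments, and the difference passed in 2.

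*Hey1*, a target of the Hey family, was at low levels. Basal libraries of 9 weeks had 2.31 to 5.24 CPM and luminal ones 2.66 to 14.0 CPM (log2 fold change -0.78, SE 0.32, adjusted p = 0.067). With the number within genotype as a block the value was -0.75 and the adjusted p 0.038. That block raised the genes passing from 5587 to 7521 of 12809. *Numb*, which opposes receptor activity, was lower in basal cells at 4 weeks, where basal libraries had 40.7, 78.3, 80.7, 36.3 and 54.4 CPM and luminal ones 59.3 to 104 CPM (log2 fold change -0.74, SE 0.22, adjusted p = 0.019). That call was lost without *Cdkn1b*+/+ basal or luminal library 1, *Cdkn1b*-/- basal library 1 or *Cdkn1b*-/- luminal library 2 (adjusted p up to 0.099). At 9 weeks *Numb* had 34.96 to 51.1 CPM in basal and 32.5 to 55.4 CPM in luminal libraries (log2 fold change -0.20, SE 0.21, adjusted p = 0.46).

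**Figure D3:**
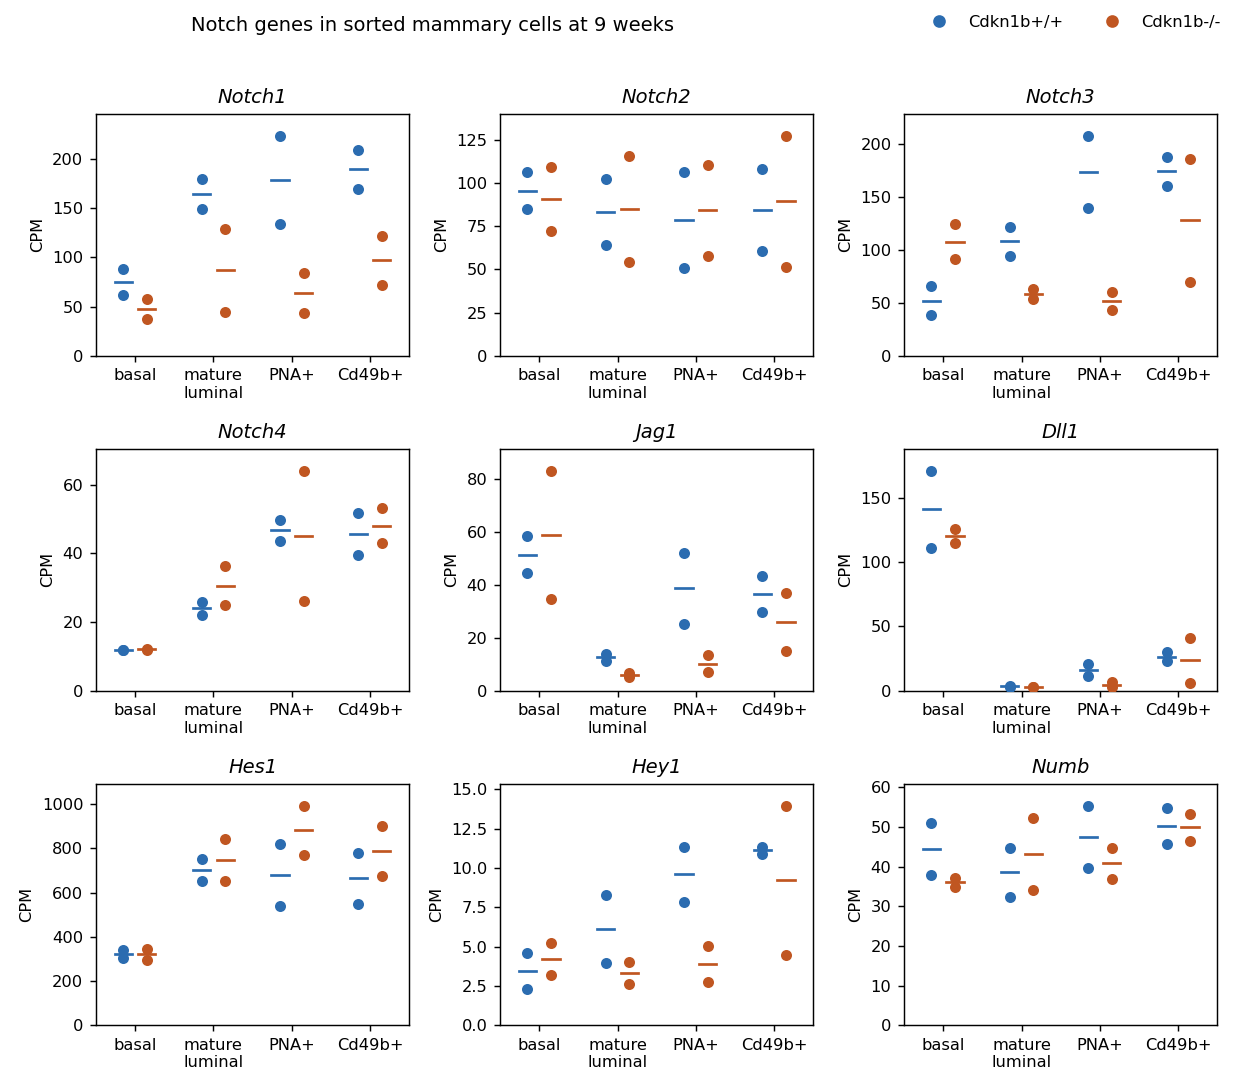
CPM of the 9 measured genes at 9 weeks by population; each point is a library, horizontal bars are means of 2, blue is *Cdkn1b*+/+ and orange *Cdkn1b*-/-. The *Dll1* points of basal cells (111 to 172 CPM) and the *Hes1* points of basal cells (294 to 347 CPM) stand apart from all luminal points.

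Within the luminal cells of 9 weeks, both measured ligands were higher in LP than in mature luminal cells. In this comparison 2 of 9 members passed, both higher, which is 22.2% of the members beside 19.7% of all genes tested. That share is near the background, and fewer members passed in either genotype alone. *Dll1* had 2.58, 2.92, 3.06 and 3.24 CPM in mature luminal cells and 2.51 to 41.3 CPM (median 16.01) in 8 LP libraries, a log2 fold change of 2.12 (SE 0.44, adjusted p = 0.0091). *Jag1* had 5.24, 6.50, 11.3 and 13.8 CPM in mature luminal cells and 6.85 to 52.2 CPM (median 27.6) in LP, a log2 fold change of 1.34 (SE 0.32, adjusted p = 0.015). The groups overlapped for both genes, through the low *Cdkn1b*-/- PNA+ libraries. The *Jag1* call was lost without *Cdkn1b*-/- mature luminal library 2 or *Cdkn1b*+/+ mature luminal library 1 (adjusted p up to 0.061). *Notch4* had 22.1 to 36.2 CPM in mature luminal cells and 26.2 to 64.1 CPM in LP (log2 fold change 0.61, SE 0.27, adjusted p = 0.13). With the number within genotype as a block this became 0.60 with an adjusted p of 0.0085. That block raised the genes passing from 2526 to 5560 of 12809.

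Endothelial markers moved with these ligands. Their 11 genes, among them *Pecam1*, *Cdh5* and *Kdr*, were all detected, 10 of 11 were higher in LP, and their summed level was 165 to 299 CPM in mature luminal and 352 to 2048 CPM in LP libraries. Pericyte and smooth muscle markers did likewise (4 of 5 higher, 13.1 to 35.8 CPM against 27.5 to 198 CPM). The LP library with the highest endothelial sum, *Cdkn1b*-/- Cd49b+ library 2 at 2048 CPM, had the highest *Dll1* (41.3 CPM) and *Hey1* (14.0 CPM) of the 12 luminal libraries. That library also had 3018 CPM over 9 basal markers, against 320 to 1024 CPM in the other 7 LP and 245 to 504 CPM in the mature luminal libraries, and 2 of the 9 basal markers were higher in LP. The LP library with the lowest endothelial sum, *Cdkn1b*-/- PNA+ library 1 at 352 CPM, had 2.51 CPM of *Dll1*, the lowest of the 12. Basal libraries had endothelial sums of 287 to 758 CPM, inside the luminal range of 165 to 2048 CPM, with *Dll1* at 111 CPM or more. The sorted cells had been stained for Cd31 and Cd45, which mark endothelial and blood cells, though whether stained cells were gated out is not given in the sources used here. The part of endothelial, mural or basal cells in the difference between LP and mature luminal cells was not tested.

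**Figure D4:**
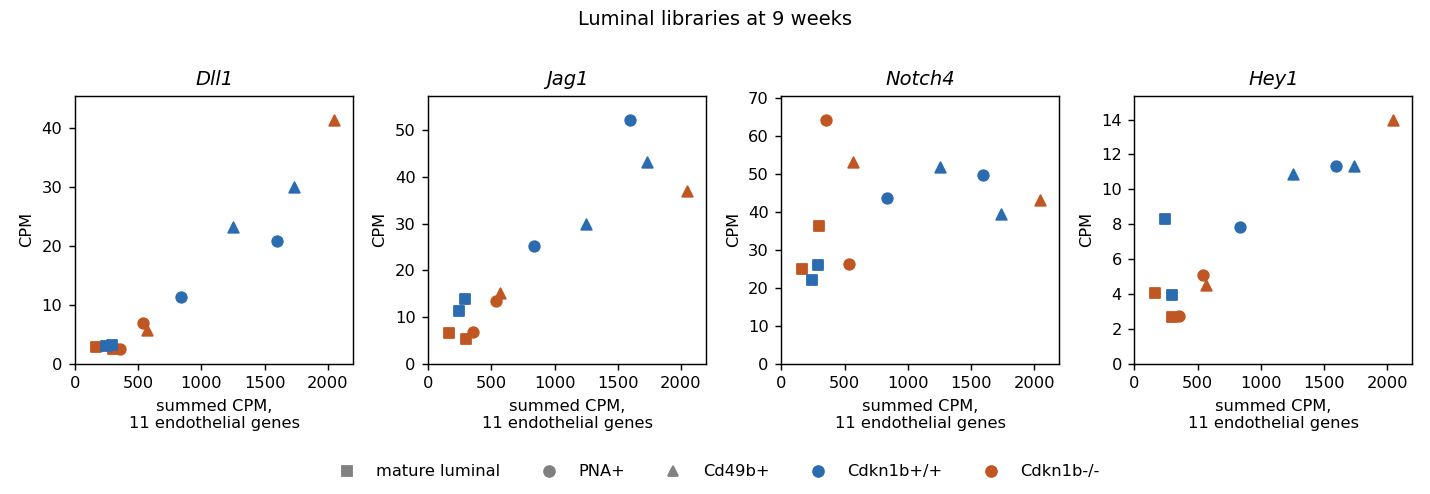
CPM of *Dll1*, *Jag1*, *Notch4* and *Hey1* (vertical axes) against the summed CPM of 11 endothelial genes (horizontal axis) in the 12 luminal libraries of 9 weeks; shape gives the population and colour the genotype. *Dll1* runs from 2.51 CPM at a sum of 352 to 41.3 CPM at 2048, and *Notch4* has its highest value, 64.1 CPM, at the sum of 352.

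Between the progenitor fractions, PNA+ and Cd49b+, 0 of 9 members passed by edgeR and 0 by DESeq2, 1 had an unadjusted p under 0.05, and 0% of all genes passed. That member was *Dll1*, with 2.51, 6.84, 11.3 and 20.8 CPM in PNA+ and 5.70, 41.3, 23.1 and 29.9 CPM in Cd49b+ libraries (log2 fold change -1.37, SE 0.46, adjusted p = 0.78). Over 16 fits that each left out 1 library this log2 fold change ran from -1.75 to -0.50.

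The second question was whether loss of *Cdkn1b* changed these genes. In LP at 9 weeks 0 of 9 members passed by edgeR, where 3.4% of all genes did; 4 had an unadjusted p under 0.05, and DESeq2 passed 1, *Hes1*. *Notch1* had 122, 72.2, 84.2 and 43.6 CPM in *Cdkn1b*-/- and 170, 209, 134 and 224 CPM in *Cdkn1b*+/+ LP libraries, the Cd49b+ pair first in each. These did not overlap, though the share of all genes without overlap was not computed. The log2 fold change was -0.86 (SE 0.39, adjusted p = 0.26). *Hes1* had the opposite sign, with 674, 900, 772 and 993 CPM in *Cdkn1b*-/- and 551, 780, 539 and 818 CPM in *Cdkn1b*+/+ LP libraries (log2 fold change 0.62, SE 0.20, adjusted p = 0.11; DESeq2 0.61, adjusted p = 0.042). PNA+ and Cd49b+ libraries of the same genotype and number deviated together, while these fits count them as separate libraries. With a term for the number, shared by both genotypes, the *Hes1* difference was 0.64 with an adjusted p of 0.036. That term does not remove the shared deviation, since same-numbered libraries of the 2 genotypes deviated in opposite directions. With the numbers crossed between genotypes, chosen after seeing the data, the difference was 0.64 for *Hes1* and -0.94 for *Notch1*. No label links the numbers across genotypes, and the crossing raised the genes passing from 436 to 1284. Its p-values are therefore not given.
*Notch3* and *Jag1* were lower in 3 of the 4 *Cdkn1b*-/- LP libraries than in every *Cdkn1b*+/+ one. *Notch3* had 69.8, 186, 59.8 and 43.3 CPM against 139 to 208 CPM (log2 fold change -0.73, SE 0.33, adjusted p = 0.27), and *Jag1* had 15.2, 37.1, 6.85 and 13.4 CPM against 25.3 to 52.2 CPM (log2 fold change -0.84, SE 0.39, adjusted p = 0.27). The exception was Cd49b+ library 2. Without that library, the one that broke the pattern, the adjusted p was 0.019 for *Notch3*, with a log2 fold change of -1.18, and 0.038 for *Jag1*, with -1.29. These were the lowest of 16 fits that each left out 1 library, and the highest adjusted p were 0.50 and 0.51. Endothelial marker sums were 352, 539, 567 and 2048 CPM in *Cdkn1b*-/- LP, the last in that same library, and 839 to 1735 CPM in *Cdkn1b*+/+ LP. Basal marker sums were 338 to 553 CPM in the other 3 *Cdkn1b*-/- LP libraries and 320 to 1024 CPM in *Cdkn1b*+/+ LP. Mature luminal marker sums were 156 to 374 CPM and 394.5 to 725.5 CPM. The part of other cells in these values was not tested.

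In basal cells at 9 weeks 0 of 9 members passed by edgeR and by DESeq2, against 0.0546% of all genes, and 1 had an unadjusted p under 0.05. *Notch3* had 91.4 and 124 CPM in *Cdkn1b*-/- and 38.2 and 65.6 CPM in *Cdkn1b*+/+ basal libraries (log2 fold change 1.29, SE 0.48, adjusted p = 0.44), and the pericyte and smooth muscle marker sum was 124 to 135 and 32.5 to 65.1 CPM. The *Notch3* effect had opposite signs in LP and basal cells. The test of the difference gave -2.01 (SE 0.58), with an unadjusted p of 0.0041 and an adjusted p of 0.53. Over 16 fits that each left out 1 library the adjusted p ran from 0.03, without *Cdkn1b*-/- Cd49b+ library 2, to 0.95. In mature luminal cells 0 of 9 passed by both tools, with 0.133% of all genes, and 0 had an unadjusted p under 0.05. *Notch1* had 129 and 44.9 CPM in *Cdkn1b*-/- and 149 and 180 CPM in *Cdkn1b*+/+ mature luminal libraries (log2 fold change -0.68, SE 0.55, adjusted p = 0.94).

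**Figure D5:**
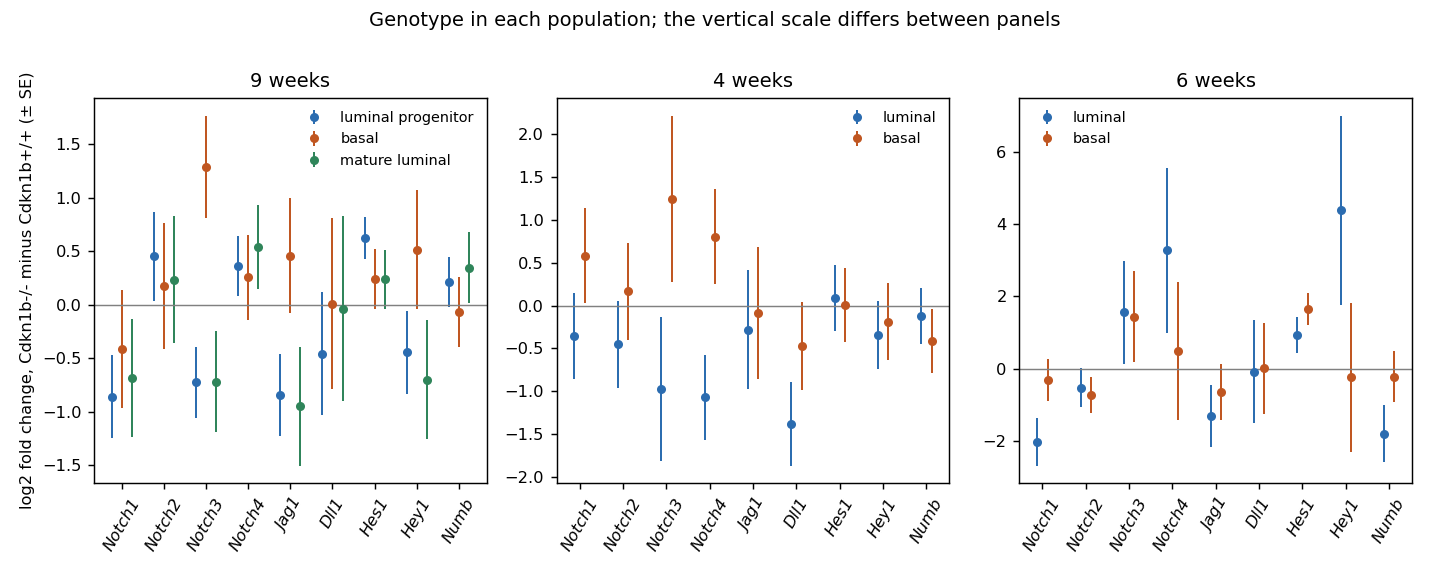
Log2 fold change of *Cdkn1b*-/- minus *Cdkn1b*+/+ (vertical axis, bars are standard errors) for the 9 measured genes in each population at 9, 4 and 6 weeks. None passed an adjusted p of 0.05, and the standard errors at 6 weeks reach 2.62.

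At 4 weeks 0 of 9 members passed in basal cells and 0 of 9 in luminal cells by edgeR and by DESeq2, as did 0% of all genes in each by edgeR. No member in basal cells and 2 in luminal cells had an unadjusted p under 0.05. These were *Dll1*, with 1.51, 1.84 and 4.98 CPM in *Cdkn1b*-/- and 5.25, 9.94 and 8.11 CPM in *Cdkn1b*+/+ luminal libraries (log2 fold change -1.38, SE 0.49, adjusted p = 0.85), and *Notch4* (log2 fold change -1.07, SE 0.49, adjusted p = 0.85). The *Dll1* libraries did not overlap, and how many of all genes did likewise was not computed.

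At 6 weeks 0 of 9 members passed by edgeR in basal cells and 0 of 9 in luminal cells, as did 0% of all genes in each, while DESeq2 passed 1 in each. In basal cells that was *Hes1*, the one member with an unadjusted p under 0.05, with 253 and 376 CPM in *Cdkn1b*-/- and 137, 91.0 and 50.8 CPM in *Cdkn1b*+/+ libraries (log2 fold change 1.65, SE 0.43, adjusted p = 0.38; DESeq2 adjusted p = 0.035). In luminal cells it was *Notch1*, with 99.7 and 15.6 CPM in *Cdkn1b*-/- and 212 and 226 CPM in *Cdkn1b*+/+ libraries (log2 fold change -2.02, SE 0.66, adjusted p = 0.20; DESeq2 adjusted p = 0.042). *Numb* had 98.8 and 8.51 CPM against 163 and 178 CPM (log2 fold change -1.79, SE 0.78, adjusted p = 0.29), and these were the 2 members with an unadjusted p under 0.05.
The lowest of these luminal values come from *Cdkn1b*-/- library 2, which had 9241 genes detected, no read of *Dll1* or *Hey1* (3 reads there are 0.323 CPM) and an adipocyte marker sum of 7006 CPM, where the *Cdkn1b*+/+ luminal libraries had 14.3 to 17.5 CPM. Leaving out either *Cdkn1b*-/- luminal library leaves 1 in that group, so only effect sizes are given. Over the fits that each left out 1 library the log2 fold change ran from -3.46 to -1.31 for *Notch1*. For *Numb* it ran from -3.97 to -0.96. The difference of the genotype effect between luminal and basal cells was -1.71 (SE 0.86, adjusted p = 0.67) for *Notch1*.

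Between 4 and 6 weeks *Hes1* fell in *Cdkn1b*+/+ cells of both types. In basal cells 2 of 9 members passed, against 10.5% of all genes. *Hes1* had 682, 322.5 and 389 CPM at 4 weeks and 137, 91.0 and 50.8 CPM at 6 weeks, a log2 fold change of -2.18 (SE 0.41, adjusted p = 0.0041), with no overlap. *Notch1* rose from 28.6, 21.9 and 30.6 CPM to 120, 72.4 and 64.5 CPM (log2 fold change 1.81, SE 0.55, adjusted p = 0.044), also with no overlap, but the call was lost without any one of 16 of the 20 libraries (adjusted p up to 0.15), all but the 4-week *Cdkn1b*-/- basal and 6-week *Cdkn1b*-/- luminal libraries.
In luminal cells 1 of 9 passed, against 3.1% of all genes. It was *Hes1*, with 1046, 866.5 and 835 CPM at 4 weeks and 271 and 232 CPM at 6 weeks (log2 fold change -1.88, SE 0.47, adjusted p = 0.039). That call was lost without any one of 10 libraries, among them all 5 that were compared (adjusted p up to 0.32). *Notch4* and *Hey1* had 15.3 to 47.1 and 13.5 to 16.3 CPM at 4 weeks, and 0.10 and 3.499 CPM and 0 and 0.53 CPM at 6 weeks (adjusted p = 0.15 and 0.072). The ages were separate sets of libraries with different depths, so age and set cannot be told apart. Markers of cell types changed in the same comparison: in basal cells 3 of 9 basal, 2 of 6 Schwann cell, 1 of 5 fibroblast and 2 of 11 endothelial markers were lower at 6 weeks, and 1 endothelial and 2 of 8 leukocyte markers were higher. In luminal cells 1 of 9 basal and 2 of 6 Schwann cell markers were lower. Their part in the *Hes1* and *Notch1* values was not tested. In *Cdkn1b*-/- animals the age change of *Hes1* was -0.62 in basal cells (adjusted p = 1) and -1.10 in luminal cells (adjusted p = 0.48); the difference between genotypes was not tested.

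E2 implants and strain were compared with 6 libraries per cell type, of which 2 were BN. For E2, 0 of 9 members passed in basal and 0 of 9 in luminal cells by edgeR and by DESeq2, with 0% of all genes in each by edgeR. In basal cells 1 member, and in luminal cells none, had an unadjusted p under 0.05. That was *Notch1*, with 76.9, 89.8 and 99.5 CPM in control and 20.4, 27.9 and 3.08 CPM in E2 basal libraries, the last from BN in each (log2 fold change -2.84, SE 0.88, unadjusted p = 0.019, adjusted p = 1). The libraries did not overlap, but the share of all genes without overlap was not computed. One of the E2 libraries, at 20.4 CPM, had fewer than 10000 genes detected.
For strain, 0 of 9 passed in basal and 0 of 9 in luminal cells by both tools, with 0% of all genes in each by edgeR, and 0 and 1 had an unadjusted p under 0.05. *Notch2* had 32.2, 17.3, 53.4 and 58.7 CPM in ACI and 69.7 and 138.6 CPM in BN luminal libraries (log2 fold change ACI minus BN -1.85, SE 0.49, unadjusted p = 0.0086, adjusted p = 0.93). The strains did not overlap, again without a share of all genes to set beside it. *Hes1* had 1205, 1056, 431 and 1937 CPM in ACI and 1329 and 2282 CPM in BN luminal libraries (log2 fold change -1.05, SE 0.73, adjusted p = 0.96).

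Of 45 further pathway genes listed, 42 were found. Between basal and luminal cells at 9 weeks 38 were tested, and 12 were higher and 6 lower in basal cells, which is 47.4% of the list beside 43.6% of all genes. The atypical ligands *Dlk2* and *Dlk1* led, with log2 fold changes of 6.29 (SE 0.38) and 5.57 (SE 0.48), then *Numbl*, a relative of *Numb*, with 3.95 (SE 0.35), each with an adjusted p of 4.1e-06 or less. On the luminal side were the receptor-cleaving proteases *Adam17* (-1.67, SE 0.37) and *Adam10* (-1.504, SE 0.25) and the ubiquitin ligase gene *Dtx3l* (-1.39, SE 0.23), with adjusted p-values of 0.0034, 0.00052 and 0.00044.
At 4 weeks 9 of 36 tested were higher and 9 lower in basal cells, 50.0% beside 47.5% of all genes. Both shares are near the background. *Dlk1* (9.58, SE 0.38), *Dlk2* (7.70, SE 0.53) and *Numbl* (4.72, SE 0.35) were again the top 3, and the largest negative values were those of the protease gene *Furin* (-2.12, SE 0.24), the target *Heyl* (-2.01, SE 0.42) and the gamma-secretase gene *Aph1a* (-1.76, SE 0.22). At 6 weeks 3 of 35 were higher (*Dlk2*, *Dlk1* and *Poglut1*) and none was lower, 8.57% beside 3.26% of all genes, and in the E2 experiment 0 of 32 passed, with 8 at an unadjusted p under 0.05. In LP against mature luminal cells 6 of 38 were higher, led by the fringe gene *Mfng* (1.54, SE 0.43), *Numbl* (1.41, SE 0.46) and *Adam10* (1.2, SE 0.26), and 2 were lower (*Psenen* and *Mib2*); these are 21.1% of the list beside 19.7% of all genes. Between 4 and 6 weeks in *Cdkn1b*+/+ basal cells 3 of 39 were lower (7.69% beside 10.5% of all genes), the targets *Hes5* (-7.08, SE 2.03) and *Nrarp* (-1.66, SE 0.46) and the gamma-secretase gene *Ncstn* (-1.80, SE 0.43). No further pathway gene passed by edgeR in the genotype, E2 and strain comparisons, for age in luminal cells or between PNA+ and Cd49b+ cells, where 0 to 5 of them had an unadjusted p under 0.05.

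Genes with patterns like those of the members were sought over the 48 libraries, after centring log2 CPM on each experiment, among 8492 genes. The libraries share animals, and cell type drives much of the variation, so Pearson's r is a description. The ligand *Dll1* was matched most closely by *Schip1* (r = 0.941) and *Crispld2* (0.938), and *Jag1* by *Vcl* (0.822) and *Pkd2* (0.77). Of the receptors, *Notch2* was closest to *Hr* (0.728) and *Gab1* (0.695), *Notch3* to *Sort1* (0.849) and *Adamts15* (0.768), and *Notch4* to *Chst1* (0.805) and *Lipa* (0.79). *Hes1* was closest to *Gfra3* (0.817) and *LOC498222* (0.814), *Hey1* to *Usp2* (0.69) and *Fam13a* (0.684), and *Numb* to *Hgs* (0.881) and *Zfp295* (0.873). Among the members, the highest r were those of *Jag1* with *Dll1* (0.629) and *Notch1* with *Notch3* (0.623), and the lowest that of *Jag1* with *Hes1* (-0.552).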

How the data were processed

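RNA-seq of sorted rat mammary cells gave 48 libraries. The authors aligned reads with STAR 2.5.1b to rn6 and counted them per gene with htseq-count and the refGene annotation; they deposited raw read counts per gene, without normalization. The strand setting is not given in the sources used here. Rows that name no gene (47.1 to 77.0% of each file's total) were left out, and the other counts were scaled to CPM.

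Comparisons used edgeR 4.0.16 in R 4.3.3 (quasi-likelihood test, TMM, filterByExpr, Benjamini-Hochberg adjustment over all genes tested, threshold 0.05), with all libraries of an experiment in 1 fit except for E2 and strain, which were fitted per cell type. SE is the standard error of the log2 fold change. For no comparison was the share of all genes without overlap between groups computed. The members and gene lists were chosen with earlier results of these data known, and the pathway genes named are the 3 with the largest changes per direction among those that passed. The genes of like pattern are the 2 closest to each member by Pearson's r; some results are not reported here. Samples were grouped by their labels.

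Libraries of 1 animal at 4 and 6 weeks were paired by their labels (9 pairs, r of residuals -0.004 to 0.841), and at 9 weeks libraries of the same genotype and number deviated together (12 pairs, r 0.343 to 0.935). None of 28 pairs of libraries of a group agreed within sampling noise. The edgeR fits of some comparisons were tested on simulated counts with known changes. For genotype in LP at 9 weeks 52.6% of log2 fold changes of 1.5 in size and 82.7% of those of 3 were recovered. The simulated libraries were independent, while PNA+ and Cd49b+ libraries of the same genotype and number deviated together. These LP shares may thus be too high for the real libraries. For genotype in basal cells at 9 weeks the shares were 17.3% and 72%, and for age in basal cells 3% and 29%. For genotype in 6-week luminal cells these shares were 0% and 5.1%, and for E2 in luminal cells 0% and 1.1%. A count of 0 passing in the last 2 comparisons thus says little about changes of these sizes. Alternatives were DESeq2 1.42.0, RLE normalization, other count filters, the compared libraries or 1 genotype alone, replicate blocks and leaving out each library. Thin libraries left out and crossed numbers were added after seeing the data. Progesterone receptor ChIP peaks were not analysed here, since no annotation of rn6 was used.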

Additional observations from a re-analysis of the deposited data

Results flagged for a closer look

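*Hey1* in the *Cdkn1b*+/+ LP libraries of 9 weeks was at 7.86 CPM in PNA+ library 1 and at 10.9, 11.3 and 11.3 CPM in the other 3, a gap larger than Dixon's 95% critical value for 4 samples. It was the only such case among 18 groups of values examined, and chance gives about 1 in 20.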

How the results depend on the processing

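Over 115 recomputed counts of members passing, 95 stayed within 1.5 times the reported count and 20 did not. Between LP and mature luminal cells 1 member passed in *Cdkn1b*+/+ alone and 0 in *Cdkn1b*-/- alone. By DESeq2 1 passed for genotype in LP, in 6-week basal cells and in 6-week luminal cells, 4 between basal and luminal cells at 6 weeks, 3 for age in luminal cells and 3 between basal and luminal cells of the E2 experiment. With at least 10 counts in every library 0 passed between basal and luminal cells at 6 weeks and in the E2 experiment. For age in basal cells 1 passed with RLE normalization and 1 with no filter. Age in *Cdkn1b*-/- alone gave 0 in both cell types, and there the luminal changes of *Notch1* and *Notch4* turned to -0.20 and 0.39 (adjusted p = 0.95 and 0.96). Without the 3 thin libraries 3 passed between basal and luminal cells at 6 weeks, 3 for age in luminal cells and 2 in the E2 experiment. The cause of these shifts was not tested. Same-numbered libraries of the 2 genotypes at 9 weeks deviated in opposite directions (4 pairs, r -0.454 to -0.172). The number as a replicate block gave 1 member in LP, *Hes1* (671 of all genes against 436), and crossed numbers gave 2, *Hes1* and *Notch1* (1284 of all genes). No label links the numbers of the 2 genotypes, so neither block pairs known animals, and the crossing was chosen after seeing the data. Without the pairing by animal 0 passed in the E2 experiment, and no other count of members moved by over 1.5 times with or without a block. Leaving out 1 library gave 4 to 6 members between basal and luminal cells at 9 weeks, 6 to 8 at 4 weeks, 0 to 3 at 6 weeks and 0 to 2 in the E2 experiment. It gave 1 to 3 for LP against mature luminal cells, 0 to 1 for PNA+ against Cd49b+, 0 to 3 for genotype in LP, 0 to 2 in 6-week luminal cells, 1 to 3 for age in basal and 0 to 3 in luminal cells. It gave 0 in all other genotype, E2 and strain comparisons. The basal mean of *Notch4* at 9 weeks was 12.4 CPM with TMM library sizes. The 6-week libraries are the shallowest, with as few as 7985619 assigned reads.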
